A study of Mus musculus with 2 samples.

Results

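The matrix metalloproteinases (Mmp), the ADAMTS proteases (Adamts), the ADAMTS-like proteins (Adamtsl) and the tissue inhibitors of metalloproteinases (Timp) were followed through the cell types of embryonic mouse skin. They were picked out by the form of their gene symbols, which gave 50 of the 32285 genes in the matrices: 15 secreted and 7 membrane-bound Mmp genes, 19 Adamts genes, 5 Adamtsl genes and 4 Timp genes. The samples were 2 droplet-based 3′ single-cell libraries from dorsolateral and flank skin at E14.5, 1 wildtype and 1 Wntless mutant. Each pooled 2 to 3 littermate embryos of one genotype, and both were prepared and sequenced together. The mutant came from K14Cre mice bred to Wntless fl/fl mice. The keratin 14 promoter drives Cre in epidermal keratinocytes, so the dermis was not targeted. Which alleles the wildtype embryos carried is not stated beyond that label. Wls, the product of Wntless, carries Wnt ligands to the cell surface. Epidermal cells with UMIs of fewer than 3 of 8 placode genes are called here cells without placode genes. In these cells Wls had 888 UMIs in the wildtype library, or 145 CPM (UMIs scaled to a class total of 1000000). In the mutant it had 33 UMIs, or 7.72 CPM. In the dermis it was at 91.8 and 77.0 CPM.

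Metalloproteinases cut collagens, proteoglycans and other matrix proteins with a zinc-dependent catalytic domain and are made as inactive precursors. Membrane-bound members act at the cell surface, the ADAMTS proteases include aggrecanases that cut large proteoglycans and the propeptidases that trim procollagens, and the ADAMTS-like proteins share the ADAMTS ancillary domains but lack the protease. Timp proteins bind and block the active proteases, Timp3 also within the matrix. In developing skin the matrix between epidermis and dermis is rebuilt while hair placodes form in the epidermis and dermal condensates gather under them.

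The libraries held 9065 wildtype and 10449 mutant barcodes, with medians of 11341 and 14602 UMIs, and 19 barcode sequences occurred in both. Dermal cells were those whose barcodes the authors had listed as dermal: 5300 in the wildtype library, with 62876844 UMIs and a median of 11154 per cell, and 5028 in the mutant, with 81179288 UMIs and a median of 15566. All 9 fibroblast markers were detected there, at a summed 15857 and 22074 CPM, against 43.2 and 36.5 CPM for 11 epidermal markers. Dermal cells were called upper or lower where 12 markers of one layer outnumbered 12 of the other by at least 2 genes with a UMI. Upper cells were 2594 wildtype (48.9%) and 1569 mutant cells (31.2%), and lower cells were 864 (16.3%) and 1346 (26.8%). Of all dermal cells, 1154 wildtype and 1132 mutant cells lay exactly at that limit, so the layers are ranges and not types. Other classes were clusters named from markers, with the 50 genes left out of the clustering. With 1 library per genotype there was no replicate and no test. Every interval below is a 95% interval for counting error only, a gene counted as measured with 50 or more UMIs over the 2 sets compared, and higher or lower means at least 1.5-fold. CPM counts 3′ tags of molecules and is not divided by gene length, so levels are set against each other within a gene and between genes only as a rank.

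Most of these genes were detected, and a block of secreted proteases was nearly silent. Over all barcodes, Mmp1b, Mmp10 and Mmp20 had no UMI, and 10 of the 50 genes had fewer than 50. A run of 9 neighbouring Mmp genes lies on chromosome 9 (GRCm38) between 7272514 and 7699585, among them the collagenases Mmp1b, Mmp8 and Mmp13, the stromelysins Mmp3 and Mmp10, the macrophage elastase Mmp12 and matrilysin Mmp7. Together the 9 genes had 390 UMIs, and 6 of them were under 50. Mmp3 and Mmp27 were the members of that block with UMIs in the dermis in numbers that could be compared.

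RefSeq promoter windows (GRCm38.p6, 250 bases before to 50 after the start) were given for 35 of the 50 genes. The TATA box, written TATAAA and searched on both strands, occurred in 11 of these 35 genes (31.4%), or in 11 of their 38 windows. It was in 13.6% of all 32851 windows of that length. By level, it was in 7 of the 10 members with under 50 UMIs, all of which had a window, and in 4 of 25 with more. Those 4 were Adamts1, Adamtsl2, Mmp3 and Mmp8. All of the 7 but Mmp21 are neighbours in the chromosome 9 block. Matches in the 7 began anywhere from 123 bases before the start (the first of 2 in Mmp7) to 4 after it (Mmp12). The Tcf/Lef core, CTTTGA on either strand, was in 5 of 35 members (6 of their 38 windows) and in 16.0% of all windows. The Gli motif GACCACCCA was in none of the 35 members and in 0.253% of all windows. A match is only a match of letters. The 250 bases before the start are shown for 2 genes with the box and almost no UMIs (Mmp10 with 0 and Mmp13 with 1), for the abundant Adamts1 with it, and for Adamts17 and Adamts18, whose dermal levels differed most between the libraries among measured members with a window. TATAAA is in capitals. Mmp10 was read from chr9:7502092-7502341 and Mmp13 from chr9:7272264-7272513, both on the plus strand. Adamts1 lies at chr16:85803114-85803363 on the minus strand, Adamts17 at chr7:66839485-66839734 on the plus strand and Adamts18 at chr8:113848840-113849089 on the minus strand. Each runs 5′ to 3′ on the gene's strand. The box began 29 bases before the start in Mmp10, 16 in Mmp13 and 32 in Adamts1, and the Adamts17 and Adamts18 windows held none of the 3 motifs.
Mmp10: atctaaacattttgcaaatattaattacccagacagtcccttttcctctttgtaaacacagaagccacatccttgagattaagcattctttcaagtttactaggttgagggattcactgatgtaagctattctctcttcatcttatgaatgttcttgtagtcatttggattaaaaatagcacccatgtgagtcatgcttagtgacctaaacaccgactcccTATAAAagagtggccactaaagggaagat
Mmp13: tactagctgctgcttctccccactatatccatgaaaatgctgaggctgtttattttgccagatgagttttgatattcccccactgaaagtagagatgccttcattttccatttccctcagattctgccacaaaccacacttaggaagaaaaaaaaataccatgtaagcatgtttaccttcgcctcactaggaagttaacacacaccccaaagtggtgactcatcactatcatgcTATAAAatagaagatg
Adamts1: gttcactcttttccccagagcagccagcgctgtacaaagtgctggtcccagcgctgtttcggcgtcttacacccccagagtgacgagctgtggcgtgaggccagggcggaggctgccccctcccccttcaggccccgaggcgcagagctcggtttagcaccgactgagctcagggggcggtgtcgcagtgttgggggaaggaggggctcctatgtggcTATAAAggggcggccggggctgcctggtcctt
Adamts17: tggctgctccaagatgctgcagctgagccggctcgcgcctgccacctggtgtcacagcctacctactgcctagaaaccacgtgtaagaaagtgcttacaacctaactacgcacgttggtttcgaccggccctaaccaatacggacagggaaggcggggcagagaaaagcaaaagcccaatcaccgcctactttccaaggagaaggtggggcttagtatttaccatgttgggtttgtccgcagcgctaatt
Adamts18: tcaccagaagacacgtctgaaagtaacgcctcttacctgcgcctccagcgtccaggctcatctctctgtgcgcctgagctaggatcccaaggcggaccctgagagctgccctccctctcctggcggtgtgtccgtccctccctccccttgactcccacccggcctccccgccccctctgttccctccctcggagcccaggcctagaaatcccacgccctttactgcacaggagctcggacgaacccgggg

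In the dermis, the members higher in the mutant library were Adamts and Adamtsl genes, with Timp4 as the 1 exception. Mmp2, Mmp14 and Timp1 lay within 1.5-fold, and Adamts18 was far lower. Of 38 measured members, 11 were higher and 5 lower in the mutant, where 8.58% of the 14145 measured genes were higher and 4.47% lower. The members' median log2 ratio (mutant over wildtype) was 0.22, against 0.03 over all genes. Of the other 12 members, 5 had no UMI in either set and 7 had too few. Under every other choice of cells or scaling tried, 7 of these 16 stayed past 1.5-fold, namely Adamts12, Adamts16, Adamts17 and Adamtsl1 (higher) and Adamts18, Adamts20 and Mmp27 (lower). For Adamts18 that includes a value on fewer than 50 UMIs, given with the condensate cells below.

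**Figure D1:**
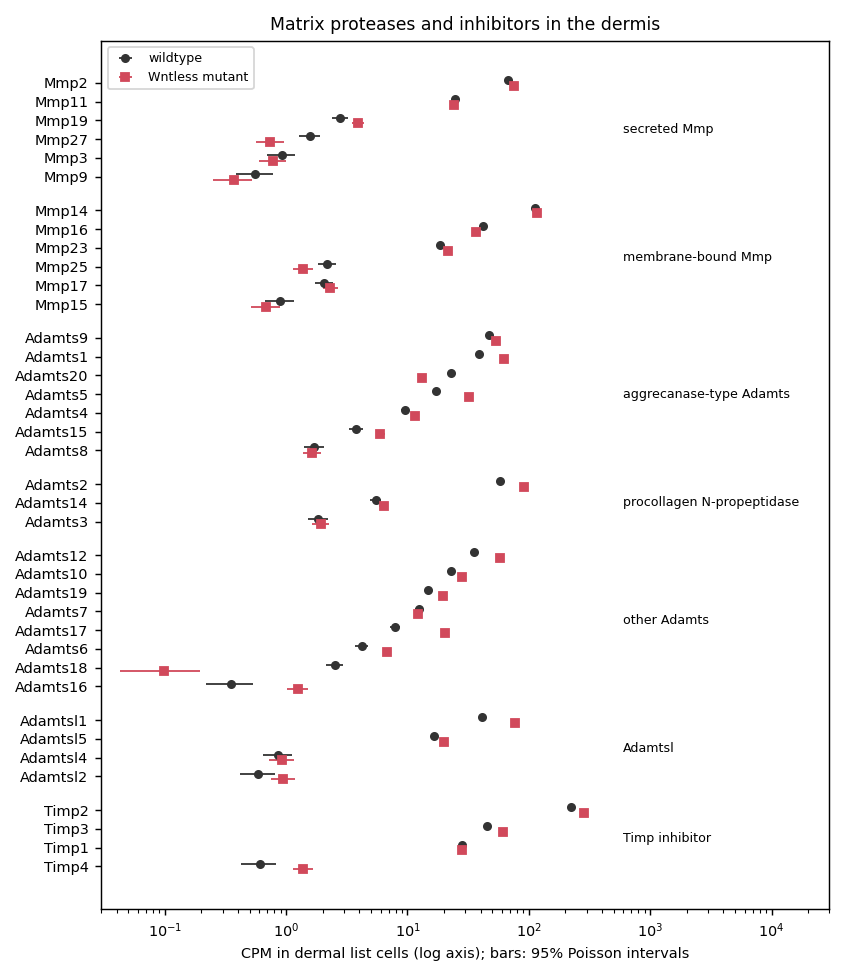
Level of each of the 38 measured members in the dermal list cells, in CPM on a log axis, grouped by role, with circles for the wildtype and squares for the mutant library and bars for 95% Poisson intervals. Timp2 is furthest right in both libraries (223 and 283 CPM), and Adamts18 shows the widest gap (2.51 and 0.0985 CPM).

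Among the secreted proteases, Mmp2 (gelatinase A, which cuts type IV collagen) had 4209 wildtype and 6086 mutant UMIs in the dermis, 66.9 and 75.0 CPM, a log2 ratio of 0.16 (0.11 to 0.22). Mmp11, stromelysin 3, was at 24.6 and 24.1 CPM. Neither passed 1.5-fold. Mmp27 was lower in the mutant, with 98 wildtype and 60 mutant UMIs, 1.56 and 0.739 CPM, a log2 ratio of -1.08 (-1.56 to -0.60). Mmp9, gelatinase B, had 35 and 30 UMIs and a log2 ratio of -0.59 whose interval, -1.34 to 0.15, included 0.

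Mmp14, the membrane protease that activates Mmp2, was among the most even members, at 112 CPM in the wildtype and 116 CPM in the mutant dermis (7034 and 9403 UMIs). Of the other membrane-bound genes, Mmp16 was at 41.9 and 36.4 CPM and Mmp23 at 18.4 and 21.7 CPM, both inside 1.5-fold. Mmp25 was lower in the mutant, with 137 and 112 UMIs, 2.18 and 1.38 CPM, a log2 ratio of -0.66 (-1.03 to -0.29).

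The aggrecanase group split. Adamts5, a main aggrecanase, had 1086 wildtype and 2633 mutant UMIs, 17.3 and 32.4 CPM, a log2 ratio of 0.91 (0.81 to 1.01). Its neighbour on chromosome 16, Adamts1 (85793827 to 85803113, with Adamts5 at 85856173 to 85901828), a protease of versican and aggrecan, was at 39.0 and 61.9 CPM, a log2 ratio of 0.66 (0.59 to 0.74). Adamts15 was higher by a log2 ratio of 0.66 as well (237 and 485 UMIs). Against these 3, Adamts20, a versican protease known from the belted coat-colour mutant, was lower in the mutant, with 1433 and 1070 UMIs, 22.8 and 13.2 CPM, a log2 ratio of -0.79 (-0.91 to -0.67). Adamts4 (0.27) and Adamts9 (0.19) lay inside 1.5-fold, so the group held ratios of both signs.

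Of the procollagen propeptidases, Adamts2 was higher, at 58.1 CPM in the wildtype and 90.9 CPM in the mutant dermis (3656 and 7378 UMIs), a log2 ratio of 0.64 (0.59 to 0.70). Its substrate gene Col1a1 had a log2 ratio of 0.59 in the same cells. Adamts14 (0.21) was inside 1.5-fold.

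Of the remaining Adamts genes, 4 were higher and 1 was lower. Adamts17, linked to fibrillin, had 498 wildtype and 1665 mutant UMIs, 7.92 and 20.5 CPM, a log2 ratio of 1.37 (1.23 to 1.52). Adamts12 had 2220 and 4679 UMIs, 35.3 and 57.6 CPM, a log2 ratio of 0.71 (0.63 to 0.78), and Adamts6 a log2 ratio of 0.69 (264 and 551 UMIs). Adamts16 rested on few molecules, 22 wildtype and 102 mutant UMIs, a log2 ratio of 1.84 (1.17 to 2.58). Adamts18 had 158 wildtype UMIs and 8 mutant UMIs, 2.51 and 0.0985 CPM, a log2 ratio of -4.67 (-5.91 to -3.66). Adamts7 (-0.03), Adamts10 (0.29) and Adamts19 (0.39) were inside 1.5-fold.

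Adamtsl1, also called punctin, was higher in the mutant dermis, with 2564 and 6238 UMIs, 40.8 and 76.8 CPM, a log2 ratio of 0.91 (0.85 to 0.98). Adamtsl2 was higher on few molecules (37 and 77 UMIs, 0.69), and Adamtsl5 was at 16.5 and 20.1 CPM. Among the inhibitors, Timp2 had the most UMIs of any member, 14048 and 22986, at 223 and 283 CPM, a log2 ratio of 0.34 (0.31 to 0.37). Timp3 was at 45.6 and 60.8 CPM and Timp1 at 28.1 and 27.9 CPM, all inside 1.5-fold. Timp4 was higher on 38 and 112 UMIs, a log2 ratio of 1.19 (0.65 to 1.76).

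The 2 dermal sets differed in make-up as well as in levels. Clusters 4 (1549 wildtype and 21 mutant cells, with the Wnt targets Dkk1 and Notum among its 10 leading genes) and 17 (224 wildtype cells, none from the mutant, led by Gal, Foxd1 and Sox2) came nearly only from the wildtype library, and cluster 0 (155 and 2042 cells) mostly from the mutant. Without clusters that took under 5% of their cells from one library, 7 members were higher (6.74% of all genes) and 3 lower (4.50%). In the 5 clusters shared by both libraries, weighted alike, 6 were higher (6.02% of all genes) and 2 lower (3.1%), and Adamts5 was then at 0.51, Adamts1 at 0.39 and Adamts2 at 0.37. In the mutant cells of each of the 5 clusters Adamtsl1 had a log2 ratio above 0, from 0.49 in cluster 3, inside 1.5-fold, to 1.0 in cluster 1. Adamts17 was higher by log2 ratios of 0.62 to 1.55 in the 4 of them where it was measured. Cluster 1, led by histone genes, gave the largest ratio of both genes. At Leiden resolution 1.0, a cluster led by histone genes held 17 wildtype and 629 mutant cells. Another, with Dkk1 and Sfrp5 among its 10 leading genes, held 1065 and 15. Other clusters stayed mixed there, such as that led by Adgra1 (852 and 914 cells). Whether the cells compared within cluster 1 were of like type was not tested.

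Within upper cells, the differences were wider than in the dermis as a whole for several genes. Of 31 measured members, 8 were higher (7.37% of all genes) and 4 lower (5.91%), and the median log2 ratio was 0.18 against -0.01 over all genes. Adamts17 had 56 wildtype and 245 mutant UMIs, 1.75 and 9.06 CPM, a log2 ratio of 2.37 (1.95 to 2.82). Adamtsl1 was at 32.8 and 69.9 CPM (1.09) and Adamts2 at 47.2 and 93.4 CPM (0.98). Timp3, inside 1.5-fold in the whole dermis, was at 36.1 and 63.2 CPM, a log2 ratio of 0.81 (0.70 to 0.92). Adamts6 (0.95), Adamts1 (0.78), Adamts12 (0.78) and Adamts5 (0.63) made up the rest. The 9 fibroblast markers were higher in these mutant cells too, at a summed 13290 and 21384 CPM. Their part in the member ratios was not tested.

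On the other side, upper cells had 152 wildtype and 3 mutant UMIs of Adamts18, a log2 ratio of -5.42 (-7.71 to -3.85). Adamts20 was at 27.3 and 16.0 CPM (-0.77). Mmp27 had 68 and 28 UMIs (-1.04) and Mmp17 47 and 16 UMIs (-1.31). Without cells that had 2 or more condensate genes, 1 member was lower, Mmp27, at -1.21. Mmp17 was then at -0.04 and Adamts20 at -0.57, and Adamts18, at -0.95, no longer reached 50 UMIs. Of the 12 calls, 9 stayed past 1.5-fold in value under every other setting, and Adamts5, Adamts20 and Mmp17 did not. No setting for upper cells left out or reweighted clusters, as was done for the whole dermis. There Adamts1, Adamts2 and Adamts6, which are among the 9, did not stay past 1.5-fold under every setting.

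Lower cells were nearly level between the libraries. Of 31 measured members, 2 were higher (4.57% of all genes) and none lower (1.62%), and the median log2 ratio was 0.12 against 0.02 over all genes. Adamts16 had 14 and 83 UMIs (1.39, 0.56 to 2.32) and Adamts17 was at 25.4 and 38.1 CPM (0.59, and 0.47 by the mean over cells). Of the 8 members higher in upper cells, the other 7 lay inside 1.5-fold here: Adamts2 (78.8 and 79.9 CPM), Timp3 (44.1 and 41.8 CPM), Adamts5 (83.4 and 99.0 CPM), Adamts1 (0.17), Adamts6 (0.31), Adamtsl1 (0.45) and Adamts12 (0.57). Timp2, inside 1.5-fold in both layers, was at 494 and 485 CPM in lower cells. The fibroblast markers summed to 22829 and 23371 CPM in lower cells. Whether upper and lower ratios differ could not be tested with 1 library each.

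**Figure D2:**
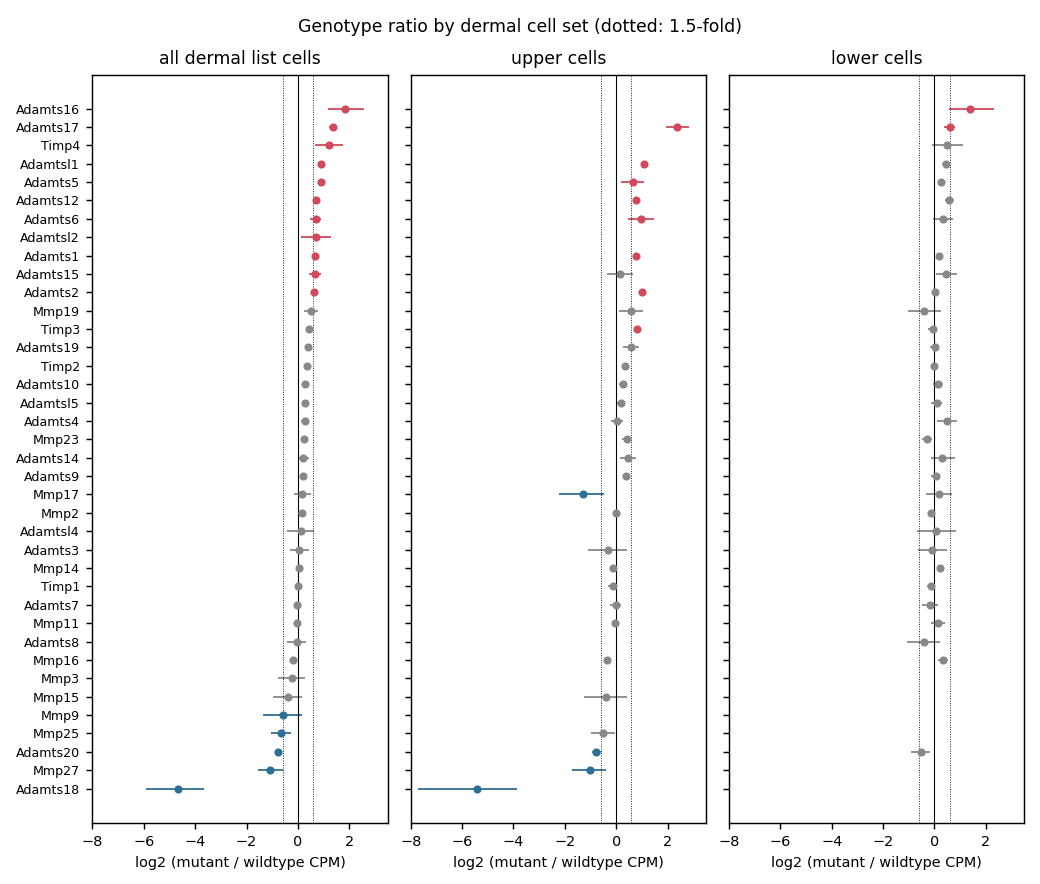
Log2 ratio of mutant over wildtype CPM for each measured member in all dermal list cells, upper cells and lower cells, with 95% counting intervals and dotted lines at 1.5-fold. Points past 1.5-fold are coloured, 16 in the first panel, 12 in the second and 2 in the third.

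Inside each library, many members differed between the layers, and more of them were at higher levels in lower cells. The members' median log2 ratio (upper over lower) was -0.70 in the wildtype and -0.57 in the mutant library, against 0.04 and -0.01 over all genes. In the wildtype library, 17 of 31 measured members were lower in upper than in lower cells (17.9% of all genes) and 6 were higher (16.4%). In the mutant library, 16 of 32 were lower in upper cells (18.0%) and 4 higher (13.7%). Among members with 500 or more UMIs over both layers the largest difference was that of Adamts5, with 80 UMIs in upper and 779 in lower wildtype cells, and 105 and 2090 (3.88 and 99.0 CPM) in the mutant. Those are log2 ratios of -5.06 (-5.41 to -4.73) and -4.67 (-4.97 to -4.39). By cluster, its wildtype level was 107 CPM in cluster 2 and 65.2 CPM in the dermal cells of cluster 12, 20.0 CPM in cluster 3, and at most 4.14 CPM in the other 5.

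Other members higher in the lower layer in both libraries were Adamts19, with log2 ratios of -2.97 in the wildtype and -2.40 in the mutant library, and Adamts1 (-1.92 and -1.31). The inhibitors Timp2 (-1.81 and -1.44) and Timp1 (-1.42 and -1.41) and the gelatinase Mmp2 (-1.14 and -1.01) went the same way. Adamts10 (-0.82 and -0.68), Adamts6 (-2.30 and -1.66), Adamts15 (-1.82 and -2.13), Adamts3 (-1.74 and -1.98), Adamts8 (-2.66 and -1.60) and Mmp17 (-1.81 and -3.29) also did. In the mutant library Timp4 (2 UMIs in upper and 98 in lower cells) and Adamts16 (2 and 83) had nearly all their UMIs of these 2 layers in lower cells, and Adamtsl4 was at -3.30.

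Members higher in upper cells of both libraries were Adamts20 (1.31 and 1.08), Mmp11 (0.78 and 0.60) and Mmp25. Mmp25 had 107 UMIs in upper and 0 in lower wildtype cells, at least 10.4-fold higher against 3 counts over the lower cells, and 63 and 3 UMIs in the mutant (4.03, 2.42 to 6.35). In the wildtype library Mmp27 had 68 UMIs in upper and 1 in lower cells (4.31, 1.78 to 9.63), Adamts18 had 152 and 1 (5.47, 2.97 to 10.8), and Mmp16 was at 53.8 and 30.5 CPM (0.82). Upper cells include condensate cells, where most Adamts18 UMIs of the wildtype dermis lay, as given below. Mmp14 was level in the wildtype, at 115 CPM in upper and 114 CPM in lower cells.

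Some members had a layer ratio in 1 library that was smaller or opposite in the other. Adamts17 was at -3.86 in the wildtype and -2.07 in the mutant library. Adamts2 was at -0.74 and 0.23, Timp3 at -0.29 and 0.60, Mmp23 at -1.13 and -0.43, Mmp16 at 0.82 and 0.11, Adamtsl1 at -0.70 and -0.05 and Mmp19 at -0.67 and 0.29. These pairs were described only, since a difference between libraries has no replicate here. Under other settings 19 of the 23 wildtype layer calls stayed past 1.5-fold, and Adamts2, Adamtsl1, Mmp16 and Mmp19 did not. In the mutant library 18 of 20 did, with Mmp11 and Timp3 lost. No setting of the layer comparison left out condensate cells.

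**Figure D3:**
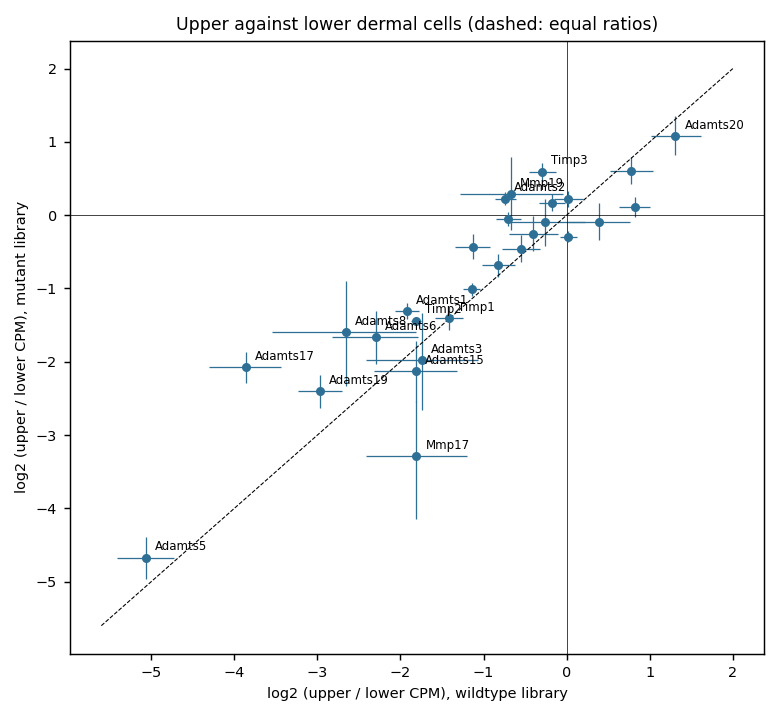
Log2 ratio of upper over lower dermal cells in the wildtype library (horizontal) against the mutant library (vertical) for the 28 members measured in both without a bound, with 95% counting intervals and a dashed line of equal ratios. Adamts5 lies lowest on the left (-5.06 and -4.67), Adamts20 is at the upper right (1.31 and 1.08), and Adamts17 lies above the line.

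Dermal condensate cells, the fibroblast clusters under hair placodes, had a protease profile unlike that of the other wildtype dermal cells. A dermal cell was counted here when 3 or more of 8 condensate genes had a UMI in it (Foxd1, Sox2, Sox18, Gal, Cxcr4, Bmp3, Gli1 and Ly6d), which gave 271 wildtype cells and none in the mutant library. Against the other wildtype dermal cells, 11 of 32 measured members were higher (15.0% of all genes) and 16 lower (20.0%), with a median log2 ratio of -0.46 against -0.03 over all genes.

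Adamts18 had 142 UMIs in condensate cells and 16 in all others, 48.4 and 0.267 CPM, a log2 ratio of 7.5 (6.75 to 8.35). So 142 of its 158 wildtype dermal UMIs were in 271 cells. Adamts4, an aggrecanase, was at 46.4 and 7.74 CPM (2.58), Adamts12 at 96.8 and 32.3 CPM (1.58) and Adamts20 at 60.7 and 20.9 CPM (1.54). The membrane-bound proteases were mostly higher: Mmp14 at 204 and 107 CPM (0.92, 0.80 to 1.04), Mmp16 at 82.5 and 39.9 CPM (1.05), Mmp17 (2.57), Mmp25 (2.46) and Mmp15 (1.55, on 7 and 49 UMIs). Adamts15 (1.96) and Adamts7 (0.81) were higher as well, and Mmp23 was the membrane-bound exception at -1.09.

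The lower genes included 3 of the 3 measured inhibitors and all 3 procollagen propeptidases. Of the 27 calls, 23 stayed past 1.5-fold under every other setting, and Adamts7, Adamts14, Mmp23 and Mmp27 did not. Timp2 was at 68.5 CPM in condensate cells and 231 CPM in the others (-1.75, -1.96 to -1.55), Timp1 at 12.3 and 28.8 CPM (-1.23) and Timp3 at 24.2 and 46.6 CPM (-0.95). Adamts2 was at 24.2 and 59.8 CPM (-1.30), Adamts3 had 1 and 115 UMIs (-2.49, -7.81 to 0.01) and Adamts14 10 and 335 (-0.71, -1.79 to 0.18). Adamtsl1 (-2.43), Adamts17 (-2.27), Adamts1 (-1.84) and Adamts5 (-1.80) were lower in condensate cells. Mmp2 (0.54), Mmp11 (0.10) and Adamts10 (-0.17) lay inside 1.5-fold. Fibroblast markers summed to 7550 CPM in the condensate cells, and the substrate Col1a1, itself among those markers, had a log2 ratio of -1.68.

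**Figure D4:**
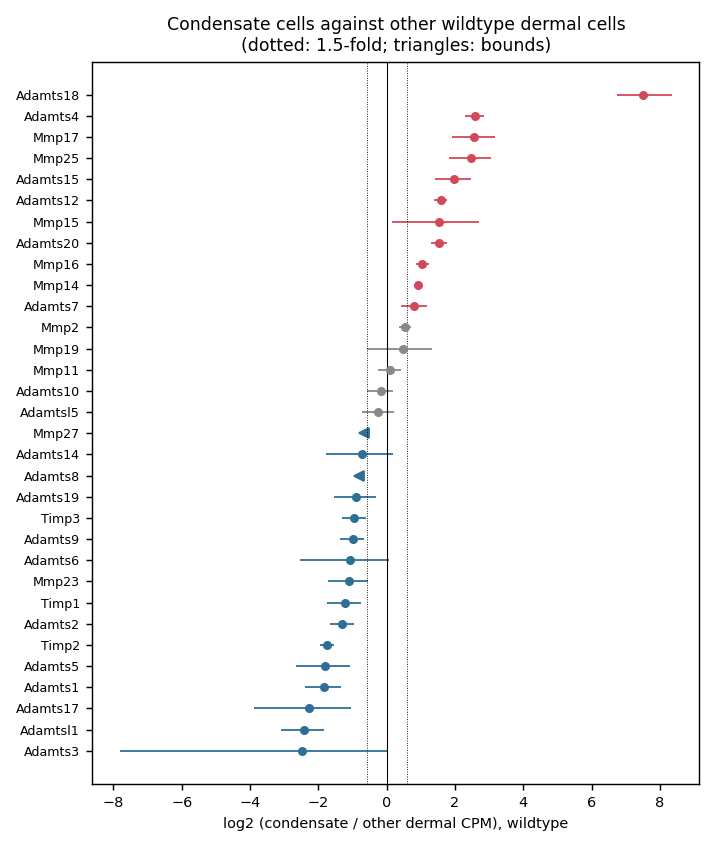
Log2 ratio of condensate over other dermal cells in the wildtype library for the 32 measured members, with 95% counting intervals, dotted lines at 1.5-fold and triangles for upper bounds of genes without a UMI in condensate cells. Adamts18 stands alone at 7.5, the membrane-bound Mmp14, Mmp16, Mmp17 and Mmp25 are to the right, and Timp1, Timp2 and Timp3 to the left.

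Between the genotypes, the Adamts18 ratio was -4.67 over all dermal cells and -0.79, on fewer than 50 UMIs, without cells that had 2 or more condensate genes. The gene was not missing from the mutant library, since its epidermal cells had 51 UMIs of it. Adamts20 and Mmp27 kept log2 ratios of -0.65 and -1.16 without those cells. Mmp27 had no UMI in condensate cells, and Adamts17 was at 1.28 and Adamtsl1 at 0.85 without them.

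The epidermis was cluster 11, where all 11 epidermal markers were detected. Cells with under 3 of 8 placode genes were 367 wildtype (6140015 UMIs) and 172 mutant cells (4272553 UMIs), with medians of 15292 and 23414 UMIs. Of these, 205 wildtype and 102 mutant cells had none of the 8, 104 and 67 had 1, and 58 and 3 had 2. Adamtsl1 led in the mutant epidermis and, with Timp2 next to it, in the wildtype. It had 302 and 374 UMIs there, 49.2 and 87.5 CPM, a log2 ratio of 0.83 (0.61 to 1.06). Adamts18 was higher as well, with 36 and 51 UMIs, 5.86 and 11.9 CPM, a log2 ratio of 1.03 (0.38 to 1.68). They were the 2 of 15 measured members that were higher (5.24% of all genes), and 3 were lower (9.93%). The members' median of -0.08 lay beside one of -0.07 over all genes.

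The lower genes were Timp1 (53 and 15 UMIs, -1.30, -2.23 to -0.45), Timp2 (48.7 and 27.6 CPM, -0.82, -1.14 to -0.51) and Adamts10 (68 and 31 UMIs, -0.61, -1.27 to 0.02). Fibroblast markers went the same way in these cells, at a summed 2837 and 1614 CPM with none of the 9 at 0. Their part in the Timp ratios was not tested. Without the cells of the top 8% of doublet scores Timp2 was at -2.10. Mmp14 (-0.50), Timp3 (-0.54) and Mmp2 (0.00) lay inside 1.5-fold.

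Placode cells, with at least 3 of 8 placode genes, were 190 in the wildtype and 1 in the mutant library, so they were compared only with the other wildtype epidermal cells. Of 12 measured members, 1 was higher (11.5% of all genes) and 6 were lower (9.96%). Adamts17 was at 22.2 CPM in placode and 11.6 CPM in other cells (67 and 71 UMIs, 0.94, 0.44 to 1.44), and at 0.32 in cells thinned to 10000 UMIs. For Timp1, 8 UMIs stood against 53 (-1.70, -2.99 to -0.62), and it alone of the 7 held under every other setting tried. The other lower genes were Mmp2 (-1.24, and -0.42 in thinned cells), Timp3 (-0.76), Adamtsl5 (-0.75), Timp2 (-0.61) and Adamts5 (-0.60, -1.62 to 0.34). Mmp14 was at 51.4 and 38.1 CPM and Adamtsl1 at 44.4 and 49.2 CPM. Fibroblast markers summed to 2103 CPM in placode cells, and their part was not tested. Mmp9 had 36 UMIs in the 190 placode cells and 11 in the other 367, and Adamts15 28 and 6, both under the minimum of 50 and named here after their values were seen.

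Each of the other cell types had its own leading members, mostly alike in both libraries. Timp3 led in Schwann-like cells (220 CPM in the wildtype and 235 CPM in the mutant) and endothelial-like cells (124 and 122 CPM). In mural-like cells, which surround vessels, Mmp14 was at 103 and 95.4 CPM and Timp3 at 97.5 and 141 CPM. Timp2 led in macrophage-like (125 and 109 CPM), muscle-like (49.8 and 53.1 CPM) and melanoblast-like cells (131 and 111 CPM). Mast-like cells differed from all of these, with Adamts9 (21.1 and 24.4 CPM) and Adamts10 (16.2 and 18.4 CPM) ahead of Timp2 (14.9 and 15.9 CPM). Erythroid-like cells, which should lack these genes, had 5.19 and 11.4 CPM of Timp2, 3.65 and 5.79 CPM of Mmp14 and lower values of the rest. Whether free RNA or doublets gave these UMIs was not tested. The macrophage-like cluster also had Tcrg-C1, a T-cell receptor gene, among its 10 leading genes.

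Among the named clusters and the dermis, epidermis compared without placode cells and with cluster 12 and the condensate set aside, 6 members had at least 3 times the level in 1 class of every other class in both libraries. In the dermis these were Adamts2 (58.1 and 90.9 CPM), Adamts19 (14.8 and 19.5 CPM) and Mmp27. In Schwann-like cells they were Mmp17, a membrane protease without the transmembrane segment (19.0 and 28.0 CPM), and Adamts15 (13.7 and 23.9 CPM). In mural-like cells it was Adamts16 (3.55 and 8.85 CPM). The share of all genes past this 3-fold limit was not computed, so the count of 6 is a description only. In the classes set aside, Adamts19 was higher in cluster 12 (26.6 and 36.1 CPM) than in the dermis, and Adamts2 was at 65.6 and 65.9 CPM there. Mmp27 had 3 wildtype UMIs in cluster 12 (0.536 CPM). Adamts15 was at 9.28 CPM in placode cells, with 38 UMIs in condensate cells, and Mmp17 at 9.89 CPM in condensate cells. With those classes counted and the dermis taken as a whole, Adamts16 alone of the 6 stood 3 times above every class. In the dermal cells of wildtype cluster 2 Adamts16 was at 2.40 CPM, within 3-fold of the 3.55 CPM in mural-like cells. Mmp15 was highest in 2 classes, Schwann-like cells (61.4 and 74.1 CPM) and endothelial-like cells (47.0 and 40.6 CPM), against 0.891 and 0.678 CPM in the dermis. Adamts5 was at 70.1 and 51.9 CPM in Schwann-like cells. Mmp8, neutrophil collagenase, had 39 of its UMIs in the mutant macrophage-like cells.

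**Figure D5:**
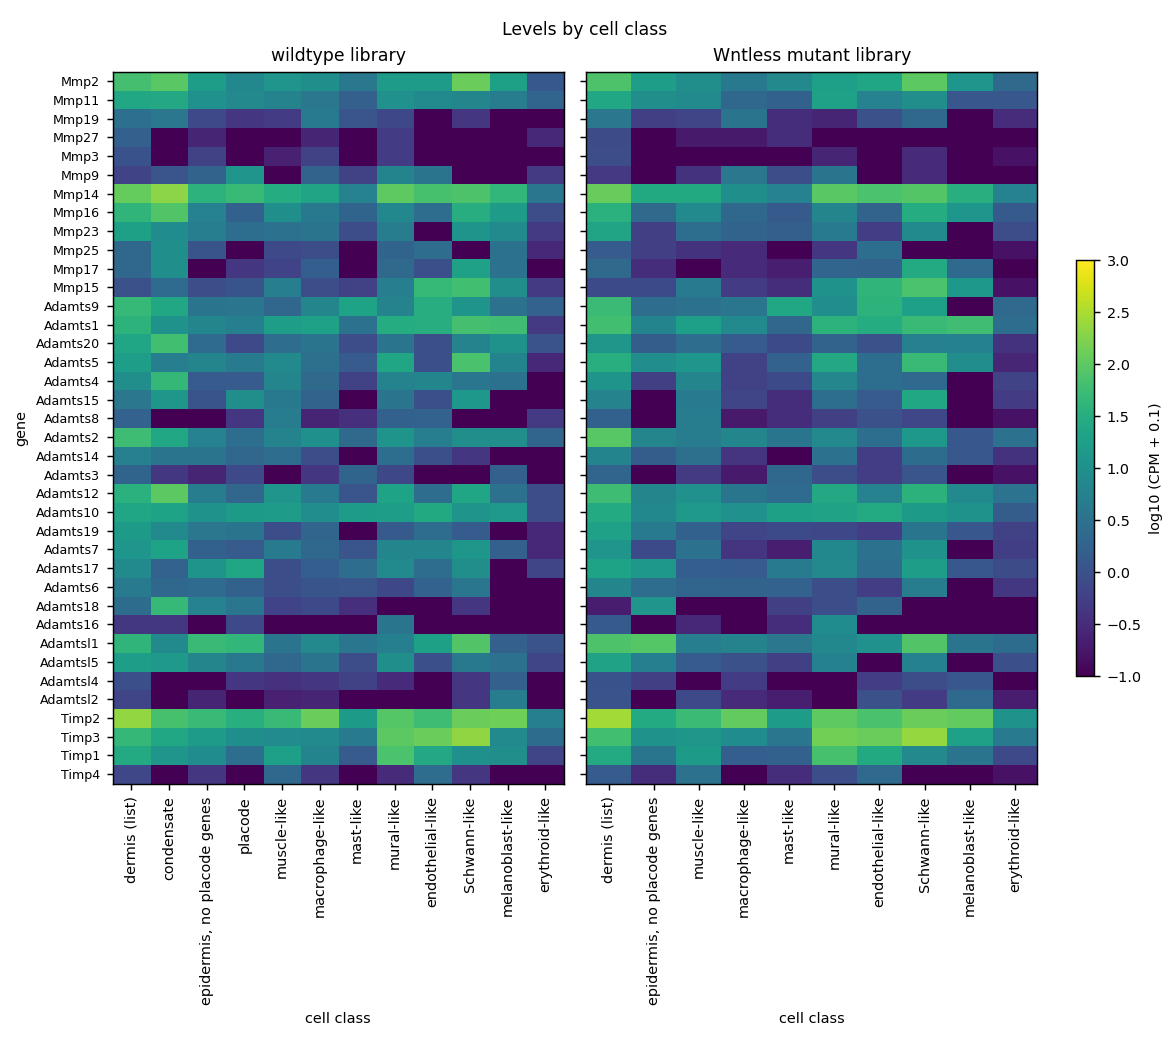
Level of the 38 members measured in the dermis in each cell class of the wildtype (left) and mutant (right) library, as log10 of CPM plus 0.1. The dermis column includes the wildtype condensate cells, and classes with few cells such as melanoblast-like (39 and 47 cells) have many empty squares. Timp2 is bright in most columns, Timp3 is brightest in Schwann-like cells and Adamts18 in the condensate column.

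Genotype values in these classes were mostly inside 1.5-fold. In Schwann-like cells 4 of 20 measured members were higher (5.77% of all genes) and none lower (2.55%), namely Adamts17 (0.85), Adamts15 (0.80), Adamts12 (0.76) and Adamts9 (0.60). Fibroblast markers in them were at a summed 4006 and 6265 CPM, and their part was not tested. In mural-like cells 4 of 21 were higher (4.77%) and 3 lower (2.10%). The higher ones were Adamts16 (17 and 55 UMIs, 1.32), Mmp15 (24 and 69 UMIs, 1.15), Mmp11 (0.88) and Adamts9 (0.60). The lower ones were Mmp9 (-0.89), Adamtsl5 (-0.77) and Adamts2 (-0.66), with fibroblast markers at 4040 and 3847 CPM.

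Muscle-like cells had 3 of 19 members higher (2.24%), Adamts5 (0.69), Timp3 (0.61) and Adamtsl1 (0.60), and none lower (3.59%). In macrophage-like cells 5 of 12 were lower (8.36%) and none higher (3.08%): Timp1 (-2.11), Adamts1 (-1.27), Mmp2 (-1.25), Mmp14 (-1.15) and Adamts9 (-0.88). Other markers differed there too, fibroblast markers from a summed 2600 to 1420 CPM and erythroid markers from 59120 to 99290 CPM. Markers of mast or other myeloid cells went from 231 to 825 CPM, with S100a8 (281 CPM) leading in the mutant. The part of these markers was not tested. In mast-like cells Mmp2 alone of 5 was higher (0.92; 4.77% of all genes) and none was lower (1.98%). None of 9 measured members passed 1.5-fold in endothelial-like cells, where 7.39% of genes were higher and 3.37% lower. None of 3 did in melanoblast-like cells (6.36% and 7.35%). In erythroid-like cells all 6 measured members were higher (28.3%; 2.93% of genes were lower), with fibroblast markers at 445 and 964 CPM. Cluster 12, led by Cxcl13, Ly6a and Pi15 and with 209 of its cells (369 wildtype and 271 mutant in all) on the dermal lists, had 4 of 25 members higher (5.93%) and 1 lower (2.50%). The higher ones were Mmp17 (1.30), Adamts14 (0.97), Adamts5 (0.95) and Mmp16 (0.69), and the lower one was Adamts20 (-1.03).

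Genes that activate, block or receive the action of these proteases were read from 3 lists. Of 28 measured activators and inhibitors in the dermis, 5 were higher and 2 lower, with a median log2 ratio of 0.32, where 8.58% of all genes were higher and 4.47% lower with a median of 0.03. A2m, the protease trap alpha-2-macroglobulin, had 112 wildtype and 358 mutant UMIs (1.31). The convertase Pcsk6 was at 46.3 and 72.8 CPM (0.65), and Cldn1 (0.93), Papln (0.63, -0.25 to 1.56) and Itgb3 (0.59) were higher too. The serine protease inhibitors Serpine2 (46.1 and 25.6 CPM, -0.85) and Spint2 (-0.80) were lower. Furin, which cleaves pro-Mmp14, was at 14.9 and 17.3 CPM, and Reck, a membrane-anchored inhibitor, at 48.5 and 58.3 CPM, both inside 1.5-fold.

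Among 21 other matrix proteases, 6 were higher in the mutant dermis and none lower (median 0.35): Dpp4 (1.57), Prss35 (1.42), Adam12 (1.27), Fap (0.78), Htra3 (0.68) and Prss23 (0.65). Fap and Dpp4 are related surface proteases of fibroblasts. Of 19 substrates, 4 were higher and none lower (median 0.46), among them Col17a1 (0.84), fibronectin Fn1 (0.69) and Col1a1 (0.59). Versican (Vcan), a substrate of Adamts1, Adamts5 and Adamts20, was at 194 and 218 CPM in the dermis (0.17).

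In upper cells, where 7.37% of all genes were higher and 5.91% lower, 6 of 23 activators and inhibitors were higher and 4 lower, 6 of 17 other proteases were higher, and 8 of 18 substrates were higher, among them Fn1 (193 and 397 CPM, 1.04). Pcsk6 was at 48.0 and 99.2 CPM (1.05). Spint2 (-1.74), the tissue plasminogen activator Plat (-1.59), Serpine2 (-1.14) and the hyaluronan receptor Cd44 (-0.74) were lower. In lower cells, where 4.57% of all genes were higher and 1.62% lower, Cldn1 (0.94), A2m (0.80), Dpp4 (0.89) and Prss35 (0.85) were higher, and none of the measured genes of the 3 lists was lower.

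The same lists were read in condensate cells, where 15.0% of all genes were higher and 20.0% lower than in other wildtype dermal cells. There the type IV collagens of basement membranes, Col4a1 (484 and 157 CPM, 1.63) and Col4a2 (206 and 71.6 CPM, 1.52), were higher, with Tnc (1.51), Nid1 (0.79) and Lamc1 (0.77). Another 9 of the 17 measured substrates were lower, led by Col1a1 (-1.68) and Col1a2 (-1.64). Of 20 other proteases 12 were lower, led by Dpp4 (-3.82) and Fap (-3.51), and Adam10, a sheddase of cell-surface proteins, was higher (93.1 and 47.3 CPM, 0.98). Of 25 activators and inhibitors 12 were lower, led by Thbs2 (-3.49), and Spint2 (2.22), Cd44 (1.22) and Pcsk5 (1.06) were higher. Reck, which blocks Mmp14 and Mmp2, was at 25.6 and 49.6 CPM (-0.96).

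In epidermal cells without placode genes, where 5.24% of all genes were higher and 9.93% lower, Vcan had 583 UMIs in the wildtype and 857 UMIs (201 CPM) in the mutant, a log2 ratio of 1.08 (0.93 to 1.23), the 1 higher substrate of 18. Another 8 substrates were lower, led by Lum (-1.80), Col1a1 (-1.26) and Bgn (-1.23), beside the lower fibroblast markers given above, whose part was not tested. The substrate and marker lists share Col1a1, Col1a2, Col3a1, Lum and Dcn, so these are partly the same genes. Of 21 activators and inhibitors there, Cldn1 (1.08) and Itgav (0.80) were higher and 6 were lower, led by Thbs2 (6 and 51 UMIs in mutant and wildtype, -2.56) and Pcolce (-1.64). Of 9 other proteases, Ctsl (0.69) and Adam17 (0.68) were higher and Ctsk (-1.81) was lower.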

How the data were processed

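Droplet-based 3′ single-cell RNA libraries of E14.5 mouse skin, 1 wildtype and 1 Wntless mutant, were analysed from the deposited UMI count matrices. Per the file headers, Cell Ranger 6.1.2 produced these counts for the authors. The submitters' processing notes name mm10 and Seurat, and the deposited barcode lists name each library's dermal cells. The members and gene lists were chosen with earlier results of these data known.

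All barcodes were clustered jointly without the 50 members (scanpy 1.11.5 and leidenalg 0.10.2, on Python 3.11.15): each cell was scaled to a sum of 10000, the log values of the 2000 most variable genes were reduced to 30 components, and Leiden at resolution 0.5 on 15 neighbours gave 24 clusters. A cluster took a name with 3 or more of its markers among its 50 top genes by fold. Doublets were not removed; Scrublet called 244 wildtype cells and 1 mutant cell, which for the mutant library is no working call, so an alternative left out the top 8% of scores. UMIs were summed per class and library, with exact Poisson intervals for CPM and exact binomial intervals for ratios (scipy 1.17.1), at 95%. A gene at 0 was set at 3 counts over the class. PCR duplicates are collapsed in UMIs, and the intervals cover counting error only. The ratio and its interval were tested on simulated Poisson counts with known folds, and the other steps were not tested in this way. Annotation was GENCODE M21 (GRCm38).

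The text names members with 50 or more UMIs past 1.5-fold, at most 12 per direction, members with 500 or more UMIs inside it, up to 4 leading members per class, members with at least 3 times the level of every other class, and up to 6 partner genes per direction; other genes are examples. No gene was tested, since each genotype had 1 library. One partner gene's values are not reported here.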

Additional observations from a re-analysis of the deposited data

Results flagged for a closer look

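Adamts18 had opposite log2 ratios (mutant over wildtype) in the dermis, at -4.67, and in epidermal cells without placode genes, at 1.03. The dermal value rests on 158 wildtype and 8 mutant UMIs and the epidermal value on 36 and 51. Of the 158, 142 were in 271 condensate cells, and without cells that had 2 or more condensate genes the dermal ratio was -0.79, on fewer than 50 UMIs. The difference between the compartments was not tested, since each genotype had 1 library.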

How the results depend on the processing

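No paired analysis was possible because each genotype had 1 library. Of the counts of members past 1.5-fold under other settings, 129 stayed within 1.5 times the main count and 31 did not. In the dermis, 7 members were higher and 3 lower without clusters nearly all from 1 library, 3 lower without cells with 2 or more condensate genes, and 6 higher and 2 lower over shared clusters weighted alike. In upper cells, 2 were lower at a minimum of 100 UMIs and 1 without condensate-gene cells. In lower cells, higher members numbered 1 without the top 8% of doublet scores, 1 with quality limits on genes and mitochondrial share, 4 over cells thinned to 10000 UMIs and 1 at 100 UMIs. Lower members there numbered 1 each without doublet scores, with quality limits, with Wnt targets added to the upper markers, and with markers counted on thinned cells. In the epidermis without placode genes, 1 was higher over thinned cells, 1 higher and 1 lower at 100 UMIs, 7 lower at 20 UMIs, 4 higher at Leiden resolution 1.0, and 5 lower with placode genes counted on thinned cells. In placode cells, 2 were higher without doublet scores, none (0) higher and 2 lower over thinned cells, 3 higher and 12 lower at 20 UMIs, 3 lower at 100 UMIs, and 3 higher and 2 lower with 2 placode genes as the limit. Between mutant upper and lower cells, 2 were higher by the mean over cells and 2 over thinned cells. The cause of these differences was not tested. Apart from the cluster-based dermal settings, whose shares stand above, the share of all genes under each setting is not given here. These counts therefore do not set the members apart from all genes. Among single genes, 1233 values stayed within their interval, 147 moved, and 2 turned direction: Mmp9 in the dermis, at 0.17 over shared clusters weighted alike, and Adamtsl5 in placode cells, at 0.27 over thinned cells. The alternative that took the dermis from fibroblast-named clusters gave no value, since no cluster took that name. The alternatives on shared clusters, thinned markers, Wnt targets, condensate-gene cells in the upper layer and thinned placode counts were chosen after seeing the data. Shallower dermal cells, 1916 wildtype and 517 mutant, were not in the thinned values.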
